A study of Mus musculus with 12 samples.

Results

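The troponin and muscle actin isoforms are the genes for cardiac troponin T (Tnnt2), the slow skeletal and cardiac forms of troponin I (Tnni1 and Tnni3), the cardiac and fast skeletal forms of troponin C (Tnnc1 and Tnnc2), and the skeletal, smooth muscle and cardiac alpha actins (Acta1, Acta2 and Actc1). These 8 genes were chosen by name. The platform's gene table listed a probe for 7 of them among the 19057 genes with a probe, and it listed none for Tnnt2, which was not analysed here. The 7 measured genes had 13 probes, 6 of them for Acta2 and 2 for Actc1, and each gene was followed by its probe with the highest mean.

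RNA had been taken from the atrioventricular canal (AVC), the narrow segment between atrium and ventricle in which the valve cushions form, and from the ventricle of mouse embryos at embryonic days 9 (E9) and 10 (E10). The ventricle samples are labelled LV, and the protocol calls the dissected piece the primary ventricle. There were 12 Illumina Mouse WG-6 v2 bead arrays in 4 groups of 3, AVC E9, AVC E10, LV E9 and LV E10, with no transgene, treatment or strain named. The sources used here do not say whether the 3 replicates came from separate embryos or pools, and the p-values below therefore cover the spread among these arrays, some of which may be technical.

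In striated muscle the thin filament is a polymer of actin on which tropomyosin and the troponin complex lie. Troponin C binds calcium, troponin I holds back the interaction with myosin until calcium is bound, and troponin T anchors the complex to tropomyosin. Embryonic heart muscle uses isoforms that later become typical of other muscles: slow skeletal troponin I comes before cardiac troponin I, and the smooth muscle and skeletal actins are made together with cardiac actin. Muscle actin genes are known targets of serum response factor (SRF), which binds a short element called the CArG box (CC, a run of A or T, then GG), and of its cardiac partner myocardin.

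The promoters of the 3 actin genes are shown because these genes are the members known for CArG boxes and because 1 of them, Acta1, fell with age. They come from RefSeq on mouse build GRCm38.p6 and run from 250 bases before the annotated start site to 50 bases after it, in the direction of the gene. All 3 genes lie on the minus strand. Capitals mark CArG boxes, and 10-letter runs that differ from one by a single G or C in the A/T core. This looser search was added after the windows had been seen.
Acta1, chr8:123894726-123895025: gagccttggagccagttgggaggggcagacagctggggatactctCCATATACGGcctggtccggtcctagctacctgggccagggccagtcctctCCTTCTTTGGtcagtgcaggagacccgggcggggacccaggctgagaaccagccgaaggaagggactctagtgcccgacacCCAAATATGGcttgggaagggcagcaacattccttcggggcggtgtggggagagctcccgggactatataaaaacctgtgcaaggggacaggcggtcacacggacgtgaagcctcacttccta
Acta2, chr19:34255324-34255623: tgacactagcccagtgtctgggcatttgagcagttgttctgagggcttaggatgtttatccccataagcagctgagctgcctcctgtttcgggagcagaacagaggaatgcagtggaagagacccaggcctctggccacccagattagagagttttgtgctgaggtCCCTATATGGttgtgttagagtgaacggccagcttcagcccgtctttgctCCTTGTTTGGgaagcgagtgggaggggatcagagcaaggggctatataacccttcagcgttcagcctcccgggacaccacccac
Actc1, chr2:114052826-114053125: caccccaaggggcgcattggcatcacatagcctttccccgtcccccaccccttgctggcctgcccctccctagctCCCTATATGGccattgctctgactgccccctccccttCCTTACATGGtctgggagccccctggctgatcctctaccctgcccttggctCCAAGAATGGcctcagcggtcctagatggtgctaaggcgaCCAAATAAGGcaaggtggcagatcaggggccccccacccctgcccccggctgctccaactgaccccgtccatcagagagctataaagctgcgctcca

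The Acta1 window held 1 exact CArG box, CCAAATATGG, which begins 73 bases before the start site, and 2 of the looser runs. The Actc1 window held 1 exact box, CCAAATAAGG, at 47 bases, and 3 looser runs. The Acta2 window held no exact box and 2 looser runs, at 84 and 34 bases before the start. Of 32851 promoter windows of the same length, 1.63% held an exact box and 9.98% held an exact box or a looser run. Of these windows 0.822% held 2 or more runs of either kind. The windows of the 5 troponin genes held neither, on either strand, like most windows. A match in letters is a description of the sequence and not of binding.

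Values are intensities on a linear scale, which the authors had background subtracted and scaled so that every array has the same mean. A probe was counted as above background where its intensity exceeded the size of the array's most negative value, 22.4 to 29.6 over the 12 arrays. Intensities of different probes cannot be ranked against each other as transcript levels, so each gene is compared only with itself between groups. For tests, values under 1 were set to 1 and log2 values of all probes were fitted together in limma, with Benjamini-Hochberg adjustment over all genes. Genes with an adjusted p under 0.05 are those described as called.

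The tissues carried some of their markers, and all 12 cardiomyocyte genes examined were above background on every array. Tbx2, Bmp2 and Rspo3, genes of canal myocardium, were higher in the AVC at both ages. Nppa, a chamber gene, was lower there at both ages. Of 5 canal genes 3 were called higher in the AVC at E9 and 4 at E10, and none lower. Of 8 chamber genes 2 were called lower at E9 and 3 at E10, and none higher. Of all genes 1.02% were called at E9 and 2.3% at E10. Bmp2 was near background, with a mean of 32.4 in AVC E9 and 2 of 3 arrays above it. LV E10 replicate 1 stood apart. Its mean correlation with its own group was 0.933 against 0.957 to 0.988 on the other 11 arrays, and its closest array was LV E9 replicate 2. It also had the highest summed intensity of the 7 erythroid genes (202564, against 111929 to 180155 elsewhere). Its summed intensity of the 12 cardiomyocyte genes was the lowest, by little (139683, against 141206 to 166601). By the mean log2 of these 12 genes AVC E10 replicate 2 was lower, at 12.31 against 12.38. For Tnni1, Tnni3, Tnnc1 and Actc1 the age difference in the ventricle is given with and without LV E10 replicate 1. Genes outside the members are given only with it.

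**Figure D1:**
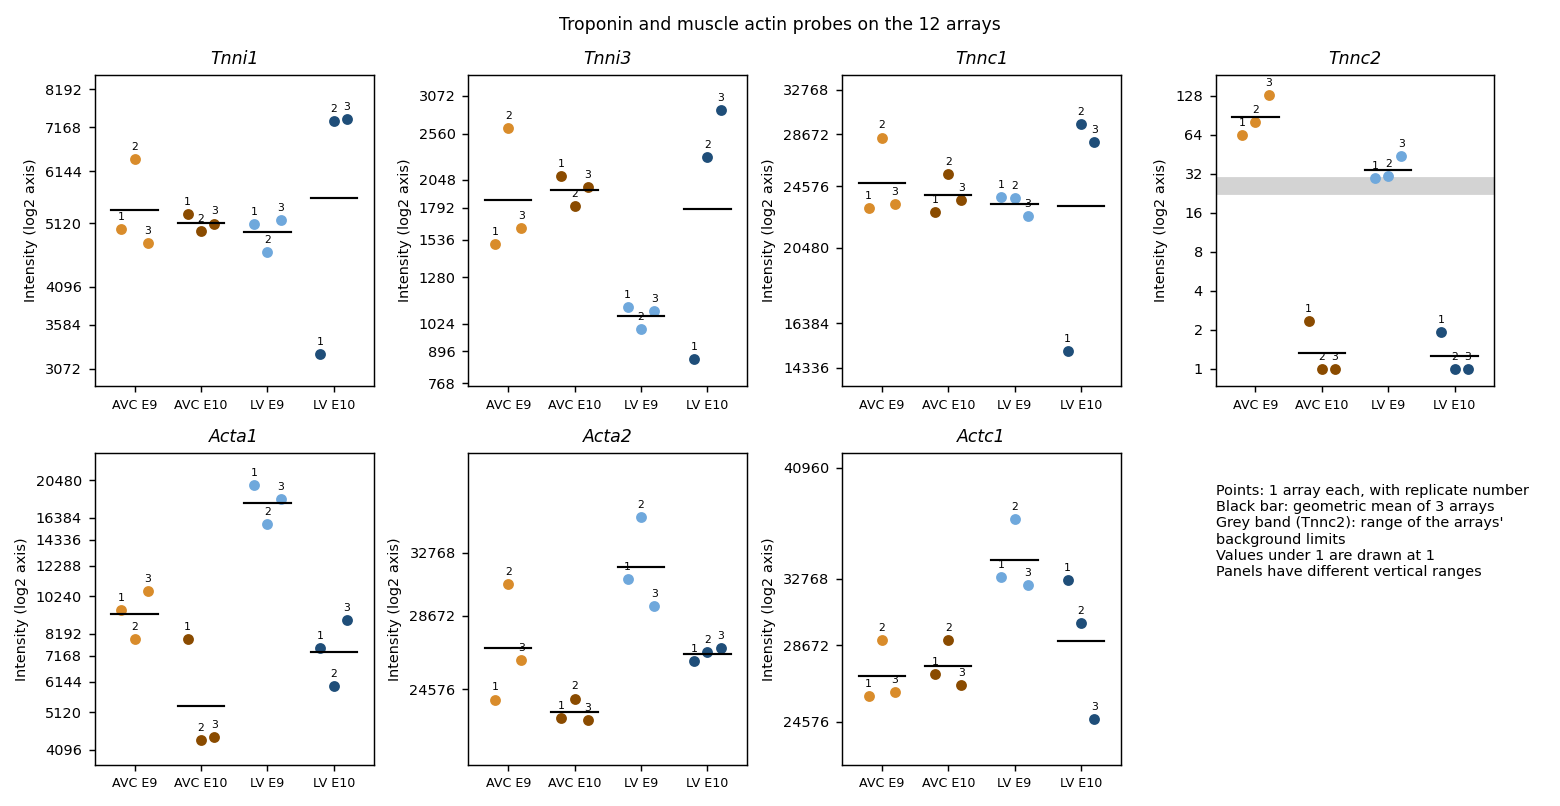
Intensity (log2 axis, a different range in each panel) of the brightest probe of the 7 measured genes on the 12 arrays, grouped by tissue and age; points are arrays with their replicate numbers, black bars geometric means of 3 arrays, and the grey band in the Tnnc2 panel the arrays' background limits. Acta1 is highest in the 3 LV E9 arrays, Tnnc2 is above the band only at E9, and LV E10 replicate 1 lies below its group in the panels of Tnni1, Tnni3 and Tnnc1.

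Acta1, the actin of adult skeletal muscle, had its highest intensity in the ventricle at E9 and lower intensities in both tissues a day later. The 3 LV E9 arrays read 19957, 15730 and 18313, a mean of 17999.8 ± 2131 (SD, n = 3). The LV E10 arrays read 7524, 5977 and 8867, a mean of 7456 ± 1447 (SD, n = 3), so every E9 ventricle lay above every E10 ventricle. The AVC read 9419, 7918 and 10548 at E9 and 7914, 4343 and 4409 at E10. These canal groups also did not overlap, but the lowest E9 array and the highest E10 array were nearly equal.

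Between E9 and E10 Acta1 fell by 1.28 ± 0.25 (SE) on the log2 scale in the ventricle, 2.43-fold, with an adjusted p of 0.0421 (limma). Over both tissues it fell by 1.04 ± 0.18 (SE), 2.05-fold, with an adjusted p of 0.0144. In the canal alone the difference was -0.79 ± 0.25 (SE) and did not pass, with an adjusted p of 0.224. The tissue by age interaction was 0.49, with a 95% confidence interval of -0.32 to 1.30 and an adjusted p of 0.937. The call over both tissues held in all 12 fits that left out 1 array, with adjusted p from 0.00251 to 0.0437. The call within the ventricle was lost in 9 of those 12 fits (adjusted p from 0.0533 to 0.155), leaving only those without AVC E10 replicate 1, AVC E9 replicate 2 or LV E10 replicate 1.

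Acta1 was also lower in the AVC than in the LV at E9, with no overlap, by -0.96 ± 0.25 (SE) on the log2 scale, but the adjusted p was 0.144. Over both ages the difference was -0.71 ± 0.18 (SE), with an adjusted p of 0.0578, and 4 alternative fits of all 12 arrays placed it below 0.05. At E10 it was -0.47, with a 95% confidence interval of -1.04 to 0.11, and the groups overlapped. Among the 8340 genes above background on all 12 arrays, those whose log2 intensities followed Acta1 most closely were Rfc5 (r = 0.971), Eif2b4 (r = 0.967) and Tmem97 (r = 0.965), as a description over 12 arrays that share 4 groups.

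Acta2 encodes smooth muscle alpha actin, an early actin of the heart tube, and its probes gave different sizes of change. The brightest read 24038, 30676 and 26142 in AVC E9 and 23100, 24090 and 23013 in AVC E10. It read 31025, 35349 and 29264 in LV E9 and 26097, 26551 and 26819 in LV E10. Every LV E9 array was above every LV E10 array, and every AVC E10 array was below every LV E10 array. The log2 difference between ages over both tissues was -0.23 ± 0.07 (SE), and the adjusted p was 0.0690 in limma, so the change was not called.

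The next 3 Acta2 probes showed a larger difference with age. The second brightest probe had means of 13083 ± 1544 in AVC E9, 7210.3 ± 2385 in AVC E10, 11657 ± 947 in LV E9 and 7558 ± 846 in LV E10 (SD, n = 3 each). With this probe in place of the brightest, Acta2 fell with age by 0.77 ± 0.15 (SE) on the log2 scale over both tissues, 1.70-fold, and the adjusted p was 0.0205. The remaining 2 bright probes gave falls of 1.57-fold and 1.72-fold, with adjusted p of 0.0172 and 0.0134. All 3 were chosen after their values had been seen. In neither tissue alone did any of the 3 pass, with adjusted p from 0.0739 to 0.105 in the canal and 0.104 to 0.145 in the ventricle.

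These 3 probes correlated with each other at r = 0.892 to 0.980 over the 12 arrays, as a description. They correlated at r = 0.552 to 0.763 with the brightest Acta2 probe, which correlated at r = 0.730 and 0.838 with the 2 Actc1 probes. The 2 Actc1 probes correlated with each other at r = 0.550, and the brightest Acta2 probe correlated with Acta1 at r = 0.715. The brightest probe was at 80% or more of the array's highest intensity on 3 arrays, AVC E9 replicate 2 and LV E9 replicates 1 and 2, where a difference may be understated. The coding sequences of muscle actins are much alike, and whether a probe also reads another actin was not tested. The other 2 Acta2 probes were at or near background, above it on 2 arrays and on none.

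**Figure D2:**
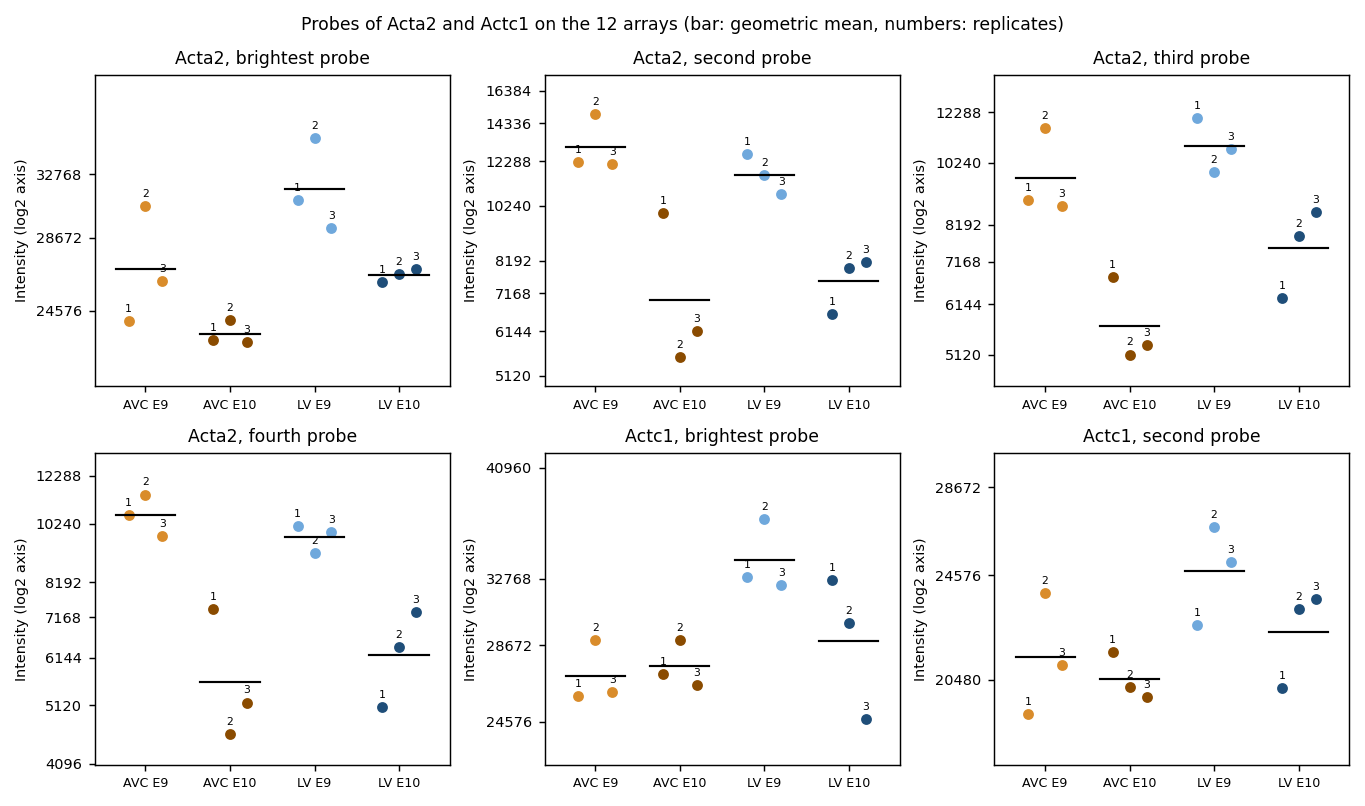
Intensity (log2 axis, a different range in each panel) of the 4 bright Acta2 probes and the 2 Actc1 probes on the 12 arrays; points are arrays with replicate numbers and bars are geometric means of 3 arrays. The 3 dimmer Acta2 probes have lower means at E10 in both tissues, and the brightest Acta2 probe and both Actc1 probes have their highest mean in LV E9.

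Actc1, the main actin of adult heart, differed little between groups. Its arrays read 25888, 28937 and 26100 in AVC E9 and 27051, 28975 and 26456 in AVC E10. They read 32869, 36921 and 32352 in LV E9 and 32668, 29976 and 24726 in LV E10. Every LV E9 array was above every AVC E9 array, while the E10 tissues overlapped. The log2 difference between AVC and LV was -0.34 ± 0.10 (SE) at E9, with an adjusted p of 0.214, and -0.07 ± 0.10 (SE) at E10, with an adjusted p of 0.879 (limma). Between ages it was 0.03, with a 95% confidence interval of -0.21 to 0.26, in the canal and -0.23, with an interval of -0.47 to 0.00129, in the ventricle. Without LV E10 replicate 1 the ventricle difference was -0.32 ± 0.10 (SE), with an adjusted p of 0.0735 (limma). Without that array the difference between AVC and LV at E10 was 0.01 ± 0.10 (SE). Actc1 was at 80% or more of the array's highest intensity on 6 of 12 arrays, including all 3 of LV E9, so that these differences may be understated. The second Actc1 probe gave -0.22 ± 0.10 (SE) between tissues at E9, with an adjusted p of 0.441.

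Tnnc2, the calcium-binding troponin of fast skeletal muscle, was measured above background only at E9. It read 63.6, 80.0 and 131 in AVC E9 and 29.8, 30.7 and 44.1 in LV E9. At E10 it read 2.33, -2.04 and -1.25 in the AVC and 1.92, -8.21 and -5.65 in the LV, all below the background limit. The E9 and E10 arrays did not overlap in either tissue, and the canal was above the ventricle at E9. These are low signals: the highest was 0.392% of the brightest probe on its array.

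With the E10 arrays set to the lowest signal measured above background on each, Tnnc2 was at least 3.55-fold higher in AVC E9 than in AVC E10, and at least 1.37-fold higher in LV E9 than in LV E10. Its fall passed the test in the canal (adjusted p 0.00119), in the ventricle (adjusted p 0.00388) and over both tissues (adjusted p 0.000212, limma), and in every fit that left out 1 array. The ventricle call was lost when values under 16 were set to 16 (adjusted p 0.0676). The canal call was lost when only the 6 canal arrays were fitted (adjusted p 0.0698). At E9 the measured difference between canal and ventricle was 1.35 ± 0.43 (SE) on the log2 scale, 2.55-fold, and did not pass (adjusted p 0.238).

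Of 11 measured skeletal muscle genes, 6 were above background on any array and 3 on all 12. Myod1, Myf5, Myf6, Mymk and Mybpc1 were above it on none. Myog was above it on 3 of 3 arrays in AVC E9, 2 in AVC E10, 0 in LV E9 and 2 in LV E10. These were low signals, with a highest Myog value of 42.1 in AVC E10. Ckm was above background on 2 arrays, both in LV E10. Over both tissues Mylpf, a fast skeletal myosin light chain, fell with age by 1.16 ± 0.26 (SE) on the log2 scale, with an adjusted p of 0.0324. Actn3, the actinin of fast fibres, rose by 1.63 ± 0.29 (SE), with an adjusted p of 0.0173. The summed intensity of the list was 1883 to 2768 at E9 and 940.4 to 3107 at E10. The part of other muscle in the Tnnc2 signal was not tested.

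Tnnc1, the troponin C of heart and slow muscle, was bright and similar in all 4 groups. It read 23064, 28416 and 23346 in AVC E9, 22791, 25491 and 23576 in AVC E10, and 23812, 23712 and 22502 in LV E9. In LV E10 it read 15091, 29576 and 28034. The outlying array within that last group was replicate 1, and the other 2 lay above every LV E9 array. The log2 difference between ages was -0.05 in the canal, with a 95% confidence interval of -0.57 to 0.47, and -0.01 in the ventricle, with an interval of -0.53 to 0.51. Without LV E10 replicate 1 the ventricle difference was 0.30 ± 0.09 (SE), with an adjusted p of 0.0751 (limma). Tnnc1 was near the top of the range on 2 arrays.

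Tnni1, the early troponin I, was similar in 3 of the groups, and spread widely in LV E10. It read 5018, 6419 and 4774 in AVC E9, 5294, 4987 and 5113 in AVC E10, and 5105, 4618 and 5170 in LV E9. In LV E10 it read 3234, 7336 and 7389, the lowest and the 2 highest values of all 12 arrays. The log2 difference between ages in the ventricle was 0.17 ± 0.29 (SE), with an adjusted p of 0.850 (limma). Without LV E10 replicate 1 it was 0.57 ± 0.12 (SE), 2 arrays against 3, and passed with an adjusted p of 0.0223 (limma).

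Tnni3, the troponin I of the mature heart, had its lowest group in the E9 ventricle. It read 1112, 999 and 1086 in LV E9, below all 3 AVC E9 arrays at 1506, 2633 and 1628. The AVC E10 arrays read 2085, 1808 and 1976, and the LV E10 arrays 864, 2284 and 2864. The E9 tissues differed by 0.81 ± 0.41 (SE) on the log2 scale, with an adjusted p of 0.536, and the ventricle differed between ages by 0.74 ± 0.41 (SE), with an adjusted p of 0.380. Without LV E10 replicate 1 the age difference in the ventricle was 1.26 ± 0.23 (SE) with an adjusted p of 0.0145, and over both tissues 0.67 ± 0.15 (SE) with an adjusted p of 0.0247 (limma). Without that array the tissue by age interaction for Tnni3 was -1.20 ± 0.31 (SE), with an adjusted p of 0.234.

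LV E10 replicate 1 was lower than the mean of the other 2 arrays of its group by 2.98-fold for Tnni3, 2.28-fold for Tnni1 and 1.91-fold for Tnnc1. For the actins the ratio of the others' mean to that array was closer to 1, at 0.986 for Acta1, 1.02 for the brightest Acta2 probe and 0.837 for the brightest Actc1 probe. It was 1.22, 1.31 and 1.35 for the 3 dimmer Acta2 probes and 1.16 for the second Actc1 probe. Its summed epicardial intensity was 3014, against 5724 and 6757 on the other 2, and its smooth muscle sum 8289.5, against 16109.8 and 16775. The sum is set by the brightest genes, and the mean log2 of the 9 smooth muscle genes differed less, at 6.72 against 6.74 and 6.89. The part of its cell makeup in these values was not tested. In RNA from whole tissue, fewer cells of a type and less RNA per cell cannot be told apart.

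**Figure D3:**
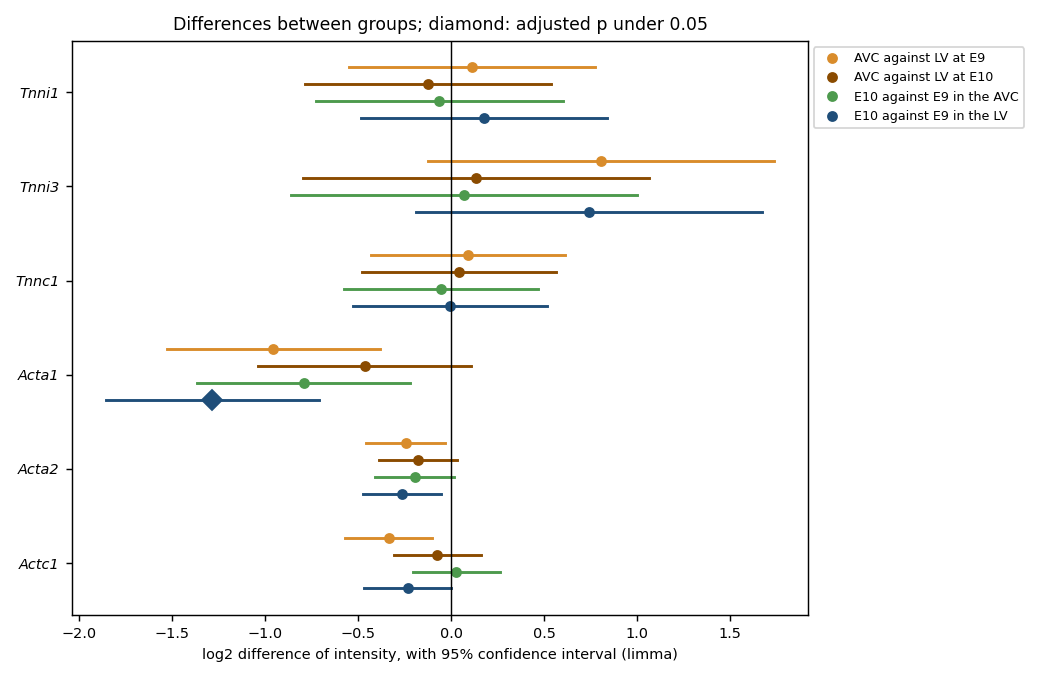
Log2 difference of intensity with its 95% confidence interval from limma for 6 genes in 4 comparisons, coloured by comparison; diamonds mark an adjusted p under 0.05. Only Acta1 between ages in the LV has a diamond, and the intervals of Tnni1, Tnnc1 and Tnni3 include 0 in all 4; Tnnc2 is left out because its E10 values lie below background.

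Counted together, no member was called between AVC and LV at E9 in limma, although 4 of 7 had an unadjusted p under 0.05 (Tnnc2, Acta1, Acta2 and Actc1). Of all 19057 genes 1.02% were called in that comparison, and 2200 had an unadjusted p under 0.05. No member was called between the tissues at E10, where 2.3% of all genes were called. There no member had an unadjusted p under 0.05, against 2650 of all genes. Over both ages no member was called against 5.47% of all genes. The same 4 members had an unadjusted p under 0.05 there, as did 3372 of all genes. For the tissue by age interaction no member was called and none had an unadjusted p under 0.05. Of all genes 0.0315% were called and 898 had an unadjusted p under 0.05.

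Between ages, 1 of 7 members was called in the AVC (Tnnc2) against 0.551% of all genes, and 2 in the LV (Tnnc2 and Acta1) against 2.37%. Over both tissues 2 were called (Tnnc2 and Acta1) against 8.1%, all of them lower at E10. The median log2 difference over the 7 members in that comparison was -0.10, against -0.06 over genes above background on all 12 arrays. With 7 members these counts describe the genes named and no tendency of the family.

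Groups of 3 that did not overlap were more frequent. Between tissues 4 of 7 members did not overlap at E9 (Acta1 and Actc1 lower, Tnnc2 and Tnni3 higher in the AVC), against 17.1% of all genes, and 1 at E10 (Acta2), against 15.8%. Between ages 2 did not overlap in the AVC (Acta1 and Tnnc2), against 16.2%, and 3 in the LV (Acta1, Acta2 and Tnnc2), against 20.4%.

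The balance between paired isoforms was followed as the log2 difference of their probes on each array, which takes out scaling of the whole array. Only its shift between groups has a meaning, since different probes have different brightness. Tnni3 minus Tnni1 was -2.25 to -2.20 on the 3 LV E9 arrays, and -1.90 to -1.37 on the 3 LV E10 arrays. In the canal it was -1.74 to -1.29 at E9 and -1.46 to -1.34 at E10. The 3 LV E9 arrays had the lowest values of all 12 arrays, and LV E10 replicate 1, low in both genes, had a balance of -1.90 on the same side as the rest of its group.

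Over both ages the Tnni3 to Tnni1 balance was 0.48 higher in the AVC (two-sided exact permutation test within age, p = 0.015). Over both tissues it was 0.35 higher at E10 (exact p = 0.02). Within the ventricle it rose by 0.57 between E9 and E10 without overlap, where 3 arrays against 3 cannot give a p under 0.1. After adjustment over the 30 pair and comparison tests the first 2 values were 0.113 and 0.12, so neither passed. A single test at its smallest possible p of 0.005 could not have passed either.

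Acta1 minus Actc1 was -1.23 to -0.72 in LV E9 and -2.33 to -1.48 in LV E10. In the canal it was -1.87 to -1.31 at E9 and -2.74 to -1.77 at E10. Over both tissues this balance shifted by -0.94 between E9 and E10 (exact permutation p = 0.01, adjusted 0.1). Actc1 was near the top of the range on all 3 LV E9 arrays and on none in LV E10. Its own difference may therefore be understated in this balance. Acta2 minus Acta1 was 0.81 higher at E10 by the brightest Acta2 probe (exact permutation p = 0.01, adjusted 0.1), but 0.27, 0.39 and 0.25 higher by the 3 dimmer ones (adjusted 0.273, 0.167 and 0.286). Acta2 minus Actc1 shifted by -0.13 between ages by the brightest Acta2 probe (exact permutation p = 0.125, adjusted 0.208), and by -0.66, -0.55 and -0.68 by the dimmer ones (adjusted 0.09, 0.12 and 0.09). Between tissues over both ages it shifted by -0.01 by the brightest probe and by 0.23, -0.08 and 0.19 by the dimmer ones. None of the 30 tests passed after adjustment, and 7 of them had an unadjusted exact p of 0.05 or less. Among these were tests of Acta1 minus Actc1 and of Acta2 minus Acta1, which share the Acta1 probe and are not independent. The smallest p possible was 0.005 over both ages or both tissues, and 0.1 for 3 arrays against 3. With 30 tests a pass was thus hardly within reach, and the adjusted values cannot show that a balance stayed the same.

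**Figure D4:**
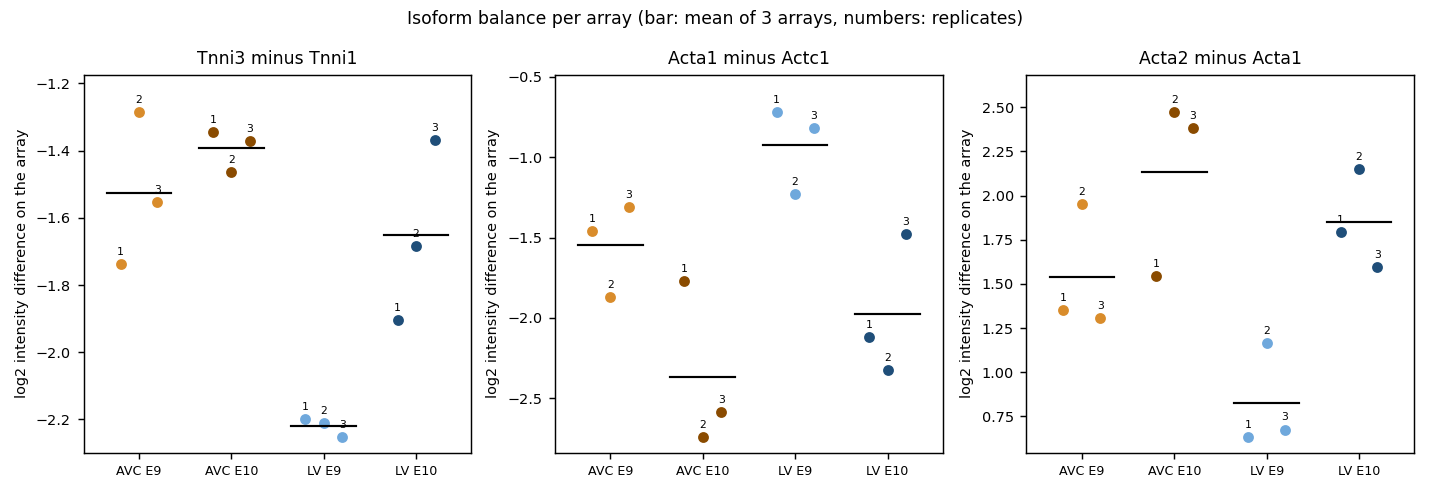
Log2 intensity difference between paired probes on each of the 12 arrays, for Tnni3 minus Tnni1, Acta1 minus Actc1 and Acta2 minus Acta1; points are arrays with replicate numbers and bars are means of 3 arrays. The 3 LV E9 arrays have the lowest Tnni3 minus Tnni1 values and the highest Acta1 minus Actc1 values.

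Among the other genes of the thin filament, 7 further troponins and tropomyosins were measured and all were above background on every array. None was called between tissues at either age. The median log2 difference between ages over both tissues was -0.15 for these genes, against -0.06 over genes above background on all arrays. Over both tissues 1 of 7 rose with age, against 8.1% of all genes called. This was Tpm1, the main striated muscle tropomyosin, which rose by 0.84 ± 0.15 (SE) on the log2 scale (limma adjusted p 0.0160). Its means were 2834 and 4624 in the AVC and 1893 and 3583 in the LV, at E9 and E10. Of the other actins, Actb, cytoplasmic beta actin, differed by 0.16 ± 0.15 (SE) between ages over both tissues (adjusted p 0.597). Actg2, enteric smooth muscle actin, differed by 2.16 ± 0.55 (SE) between tissues over both ages (adjusted p 0.0609), with 66.3 to 658 in AVC E10.

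Of 22 measured genes for filament ends, length and assembly, 2 rose and 1 fell with age over both tissues, against 8.1% of all genes called. Myoz2, a Z-disc protein of heart and slow muscle, rose by 2.45 ± 0.36 (SE) on the log2 scale (adjusted p 0.00875), and also within the ventricle by 2.43 ± 0.50 (SE) (adjusted p 0.0480, limma). Nrap, a scaffold of growing myofibrils, was above background on 1 of 6 arrays at E9 and on all 6 at E10, with an adjusted p of 0.0403. Lmod1, a smooth muscle leiomodin that nucleates actin, was above background on 5 of 6 arrays at E9 and on 1 of 6 at E10, and fell with an adjusted p of 0.0479. No gene of this list was called between tissues, and the median log2 difference of the list between ages was -0.065, against -0.058 over genes above background.

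Among 15 measured genes for SRF and cardiac factors, Myocd, which encodes myocardin, fell with age by 1.55 ± 0.29 (SE) on the log2 scale over both tissues, 2.93-fold (limma adjusted p 0.0194). Its means were 853 ± 339 and 382 ± 147 in the AVC and 1109 ± 387 and 275 ± 51.0 in the LV, at E9 and E10 (SD, n = 3 each). Srf itself differed by -0.51 ± 0.14 (SE) and did not pass (adjusted p 0.0604). Over both ages 4 of the 15 were called, each higher in the canal, against 5.47% of all genes, of which 912 of 1042 were also higher there. The median log2 difference of the list was 0.67, against 0.11 over genes above background. Of these, Gata6, a zinc finger factor of early heart, was 1.70-fold higher (adjusted p 0.00375) and was also called at E10 alone. Mef2c, a muscle transcription factor, was 1.63-fold higher (adjusted p 0.0297), Tbx20, a cardiac T-box factor, 2.37-fold (adjusted p 0.0270) and Fhl2, a LIM protein that partners SRF, 2.34-fold (adjusted p 0.0364). None of 6 measured troponin kinase and phosphatase genes was called in any of the 7 comparisons, in which 0.0315% to 8.1% of all genes were called.

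Markers of other tissue moved with age and tissue as well. Of 9 smooth muscle genes, Tagln, an actin-binding protein, fell with age in the ventricle by 1.57 ± 0.23 (SE) on the log2 scale (limma adjusted p 0.0218), from 320 ± 56 to 109 ± 26 (SD, n = 3). In the canal Tagln was 165 ± 14.6 at E9 and 176 ± 38.9 at E10, a log2 difference of 0.07 ± 0.23 (SE), so its call over both tissues rests on the ventricle. Lmod1 was the other gene of this list called lower over both tissues, against 8.1% of all genes called. The list as a whole did not fall: its median log2 difference between ages was 0.29 over both tissues and 0.27 in the ventricle. Over genes above background on all 12 arrays these medians were -0.06 and -0.11. The sum of the 9 genes was 9986 to 15078 at E9 and 8289.5 to 16775 at E10. Of 12 cardiomyocyte genes 1 was called lower with age over both tissues, against 8.1% of all genes called. It was Ttn, the giant elastic protein of the sarcomere, lower by 1.65 ± 0.41 (SE) (limma adjusted p 0.0472). None of the 12 was called between tissues. The summed cardiomyocyte intensity was 148179 to 166601 at E9 and 139683 to 153593 at E10.

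Epicardial genes, measured for 6, summed to 512 to 1184 at E9 and to 3014 to 6757 at E10, and 4 of 6 rose with age over both tissues, where 8.1% of all genes were called. Endothelial and endocardial genes summed to 2860 to 4379 at E9 and 5223 to 6977 at E10, and 4 of 8 rose in the same comparison. Cushion mesenchyme genes summed to 3349 to 7608 in the AVC and 907 to 2058 in the LV, and 5 of 9 were higher in the AVC over both ages, against 5.47% of all genes called. The part of these cells in the lower Acta1 and Acta2 intensities at E10 was not tested.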

How the data were processed

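Total RNA of 12 samples was labelled as biotinylated cRNA and hybridised to Illumina Mouse WG-6 v2 arrays. The deposited values are linear intensities, background subtracted and scaled by the authors to one mean per array, not log transformed. No source used here names the program that made them. Precision is set by the number of arrays.

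Of 45281 probes, 34885 had 1 gene symbol, 18 had several and 10378 had none listed. Each of 19057 genes was represented by its brightest probe on average. Before log2 a floor of 1 was applied, which 36.8% of values lay under. All probes were fitted in limma 3.58.1 (R 4.3.3) with 4 group means, and 7 contrasts were tested on the genes with Benjamini-Hochberg adjustment in each. The fit was tested on simulated data. Balances used two-sided exact permutation tests, within age or tissue, in Python 3.11.15. A probe at 80% or more of its array's maximum was called near the top.

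Alternatives were other scalings, another floor, only genes above background, the replicate number as a block, trended and robust or weighted fits, the mean over probes, each array left out, only the 6 arrays compared and, added after seeing the data, other Acta2 and Actc1 probes. Named are the 8 members, every list gene that passed in a described comparison and, otherwise, at most 4 of the brightest of a list. The skeletal muscle genes at background, Myog and Ckm were added. Likeness was the highest Pearson r over 12 arrays. Members and lists were chosen with earlier results of these data known. Promoters came from RefSeq (GRCm38.p6). Protein sequences and probe sequences were not used here.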

Additional observations from a re-analysis of the deposited data

How the results depend on the processing

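No called difference reversed under any alternative, and 79 of 88 counts of called members with all arrays kept stayed within 1.5 times the reported count. Between tissues over both ages, where none was called, 1 was called with 75th percentile scaling, with only genes above background and with the replicate block (Acta1 in each, adjusted p 0.0174, 0.0235 and 0.0401), and 3 with array weights (Acta1, Acta2 and Actc1). Between ages, array weights called 2 in the canal and 4 over both tissues. Setting values under 16 to 16 called 0 in the ventricle, and fitting only the 6 arrays compared called 0 in the canal and 1 in the ventricle. Leaving out each array gave 0 to 1 between tissues over both ages, 1 to 2 in the canal between ages and 1 to 4 in the ventricle, the 4 without LV E10 replicate 1. The share of all genes called in each alternative fit is not given here. A higher count of members is therefore not read as a result about the members.

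Same-numbered samples had deviations correlated at r = -0.366 to 0.524 (median 0.10, over 0.1 in 9 of 18 pairs), against a median of -0.08 and 9 of 36 pairs with different numbers. These pairs include arrays of different age. Within E9 the same-numbered AVC and LV arrays had r = 0.234, 0.0942 and 0.276, against -0.206 to 0.000976 with different numbers. Within E10 the same-numbered arrays had r = -0.0976, 0.103 and 0.121, against -0.35 to 0.209. The main fit did not pair samples by number, and whether canal and ventricle of the same number share embryos is not known. With the replicate block the count over both tissues between ages was 3, with Acta2 at an adjusted p of 0.0407.

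Acta2 minus Actc1 between tissues over both ages, reported as -0.01, was 0.23, -0.08 and 0.19 by the dimmer Acta2 probes. Leaving out each array gave -0.0564 to 0.0539 for it, -0.189 to -0.0785 for the same balance between ages, 0.41 to 0.55 for Tnni3 minus Tnni1 between tissues, and -5.70 to -5.22 for Tnnc2 minus Tnnc1 between ages. Without LV E10 replicate 3 the last 3 reached an adjusted exact permutation p of 0.05. The Tnnc2 shift is set by the floor under its E10 values, being -1.74 with a floor of 16, and is no measured size. The cause of the other changes was not tested. Only 36.7 to 41.0% of probes were above background on an array, and the top of the scanner's range was not known.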
